A study of Arabidopsis thaliana with 12 samples.

Results

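The PIP2 genes encode the larger branch of the plasma membrane intrinsic proteins, the aquaporins that let water cross the plasma membrane of plant cells. All 8 PIP2 genes of Arabidopsis thaliana were found by their gene IDs among the 20114 genes listed for every group, and all 8 passed the filter on low values. The family was chosen by the FPKM of PIP2;4, which had been seen higher in trb45 and lower in trb123 than in WT in these same libraries, so its values in those groups are given without a test. The other 7 genes were taken for their family name. The genes are called by their RefSeq symbols, which are PIP2A for PIP2;1 (AT3G53420), PIP2B for PIP2;2 (AT2G37170), RD28 for PIP2;3 (AT2G37180), PIP2;4 (AT5G60660), PIP2;5 (AT3G54820), PIP2E for PIP2;6 (AT2G39010), PIP3 for PIP2;7 (AT4G35100) and PIP2;8 (AT2G16850).

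RNA was taken from whole seedlings at 7 days of age, in 12 libraries of polyA RNA, 3 for each of 4 groups. WT is the accession Col-0, and trb45 is a mutant of TRB4 and TRB5, represented by lines 1 and 2, which were made independently. The fourth group is trb123, the triple mutant of TRB1, TRB2 and TRB3. All groups were left without treatment after 2 days in the cold and dark at 4 °C and were grown on 1% sucrose at 23 °C with 16 h of light and 8 h of darkness. TRB proteins are single-Myb-histone proteins that bind the telomere-repeat-like telobox in gene promoters, and the study asked how loss of TRB4 and TRB5 changes gene expression beside loss of the other 3. The labels name no mutant alleles, and each trb45 line or triple mutant is 1 genotype sampled 3 times. Seedlings mix roots, shoots and all their cell types, so fewer cells of a type and less RNA per cell cannot be told apart.

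Aquaporins of this class sit in the plasma membrane as tetramers, in which each subunit forms its own water pore. PIP1 proteins usually reach the plasma membrane together with a PIP2 partner, and PIP2 proteins are the more active water channels, some of which also pass hydrogen peroxide. In Arabidopsis the family carries much of the water flow through root cells and takes part in leaf and guard cell water movement.

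Each PIP2 gene had 4 exons in the reference annotation (RefSeq, TAIR10.1), and none overlapped another gene. PIP2;4 lies on chromosome 5 at 24375368 to 24377206 on the minus strand, and PIP2;5 lies on chromosome 3 at 20301759 to 20304309 on the plus strand. PIP2B, on chromosome 2 at 15613368 to 15615022 on the minus strand, and RD28, at 15617635 to 15619155 on the plus strand, are neighbours. Their coding sequences were identical at 813 of 858 aligned bases, or 94.8%, whereas the other pairs of PIP2 genes ranged from 71.9% to 86.2%. The messages of PIP2B and RD28 share an unbroken run of 242 bases. The longest run shared by any other pair is 49 bases. The run is printed with 25 bases on each side, all coding, across exons 1 and 2, because a read that falls inside it cannot be placed in 1 gene by its sequence. The capitals mark the 7 bases that differ between both genes. The stretch covers chr2:15614230-15614642 (minus strand) in PIP2B and chr2:15617928-15618340 (plus strand) in RD28, with an intron left out.
PIP2B: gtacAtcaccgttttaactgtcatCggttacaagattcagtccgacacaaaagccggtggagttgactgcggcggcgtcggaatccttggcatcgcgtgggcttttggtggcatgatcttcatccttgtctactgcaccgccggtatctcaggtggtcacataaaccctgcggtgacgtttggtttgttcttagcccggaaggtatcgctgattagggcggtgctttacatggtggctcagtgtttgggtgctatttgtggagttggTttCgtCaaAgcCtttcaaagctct
RD28: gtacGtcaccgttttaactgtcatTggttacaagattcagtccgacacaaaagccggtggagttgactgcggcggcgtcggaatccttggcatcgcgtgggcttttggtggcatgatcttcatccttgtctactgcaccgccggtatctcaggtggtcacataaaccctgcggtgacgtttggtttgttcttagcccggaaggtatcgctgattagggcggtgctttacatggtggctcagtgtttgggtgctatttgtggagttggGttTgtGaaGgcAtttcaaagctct

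The 250 bases before the annotated starts of PIP2;4 (chr5:24377207-24377456, minus strand) and PIP2;5 (chr3:20301509-20301758, plus strand) are shown because these genes had the largest differences between trb123 and WT in the family, in opposite directions. Capitals mark GTCGGC, the reverse complement of GCCGAC, a form of the core of the dehydration-responsive element and the only form searched.
PIP2;4: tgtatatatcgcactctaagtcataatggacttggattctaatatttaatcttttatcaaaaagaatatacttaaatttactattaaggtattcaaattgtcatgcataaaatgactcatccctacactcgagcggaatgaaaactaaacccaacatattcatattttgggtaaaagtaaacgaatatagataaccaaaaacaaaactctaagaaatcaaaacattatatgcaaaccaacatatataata
PIP2;5: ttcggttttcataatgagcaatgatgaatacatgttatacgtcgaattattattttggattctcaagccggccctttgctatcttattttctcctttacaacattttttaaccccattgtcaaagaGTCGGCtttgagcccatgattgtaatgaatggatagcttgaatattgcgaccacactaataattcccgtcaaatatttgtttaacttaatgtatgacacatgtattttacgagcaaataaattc
The telobox, searched as AAACCCTA on both strands from 500 bases before to 200 bases after the start, was in none of the 13 PIP2 and PIP1 windows and in 15% of 20020 nuclear genes. GCCGAC was in the window of PIP2;5 alone among the 13, with its first base 124 bases before the start, and in 8.52% of all the windows. ACGTGGC, the core of the abscisic acid response element, and the G-box CACGTG were in none of the 13, against 7.74% and 13.9% of all windows. These are matches of letters and do not show where a protein binds.

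The members covered a wide range of levels, given here as FPKM, the fragments of a gene corrected for its length and for the library's total. In WT the mean level was 726 ± 16 FPKM for PIP2A, 405 ± 23 for PIP3, 213 ± 2.2 for PIP2B, 147 ± 8.6 for PIP2E, 61.9 ± 1.9 for RD28, 14.0 ± 1.0 for PIP2;8, 10.2 ± 0.45 for PIP2;4 and 4.76 ± 0.15 for PIP2;5 (SD, n = 3 for each). No neighbouring pair in this order had overlapping WT libraries. PIP2A ranked between 64 and 93 of 20114 genes in the 12 libraries. The order of the top 5 means was the same in all 4 groups, although PIP2B and PIP2E overlapped in trb45 line 1. The bottom of the order changed: PIP2;4 stood above PIP2;8 in both trb45 lines, with overlapping libraries in line 2, and last in trb123, where PIP2;5 stood above PIP2;8. Fragment totals inferred from the steps of the low FPKM values were 22593500 to 24348500 per library. They put PIP2;4 at about 334 to 349 fragments per WT library and 85 to 103 per trb123 library.

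As a check of the labels, TRB4 was at 8.16 to 11 FPKM in WT and 2.96 to 6.10 in the 6 trb45 libraries, and TRB5 was at 11 to 12.5 and 2.85 to 3.51. In trb123, TRB1 was at 0.65 to 0.99 FPKM against 9.76 to 11.2 in WT, TRB2 at 2.52 to 3.12 against 10.5 to 13.3, and TRB3 at 1.2 to 2.01 against 6.34 to 8.65. The libraries also fell into different sets, by a split seen within line 1. At 226 genes trb45 line 1 replicate 3 was lower than replicates 1 and 2 by at least 1 on the log2 scale, and over these genes the WT libraries lay with replicates 1 and 2 while all line 2 and trb123 libraries lay with replicate 3. The first set is thus WT with line 1 replicates 1 and 2, and the second set is the other 7 libraries. The labels give no reason for this division. The 226 genes were picked for the split within line 1, and in the other groups the sets coincide with genotype. Line 2 and trb123 have no library in the first set, so their differences from WT and the difference between the sets cannot be told apart except through line 1.

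PIP2;4, an aquaporin found mainly in roots that moves water and hydrogen peroxide, had the widest spread between groups of the 8. Its levels were 10.2, 10.7 and 9.78 FPKM in WT, 24.8, 32.8 and 38.3 in trb45 line 1, 22.6, 27.0 and 17.4 in line 2, and 2.45, 3.0 and 2.69 in trb123. Every trb45 library was above every WT library, and every trb123 library was below. The mean was 3.13 times the WT mean in line 1 and 2.19 times in line 2, and the trb123 mean was 3.76-fold lower than WT. Both lines together were at 27.2 ± 7.5 FPKM (SD, n = 6), 10.0 times the trb123 level of 2.71 ± 0.28 (SD, n = 3). On the log2(FPKM + 1) scale these differences from WT were 1.54 for line 1, 1.04 for line 2 and -1.60 for trb123. They are the values that chose the gene and are given as a description. With a term for the 2 sets of libraries they were 1.40, 0.62 and -2.01. The size of that term rests on line 1 replicate 3 against replicates 1 and 2. The 1.40 is therefore the difference of line 1 replicates 1 and 2 from WT within the first set, and that set alone gives no further check. Within the second set alone line 2 was 2.63 above trb123. The level in line 1 exceeded that in line 2 by 0.50 (SE 0.16, 95% interval 0.15 to 0.85), which did not pass the test (limma, Benjamini-Hochberg adjusted p = 0.0755), and the libraries of the lines overlapped.

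**Figure D1:**
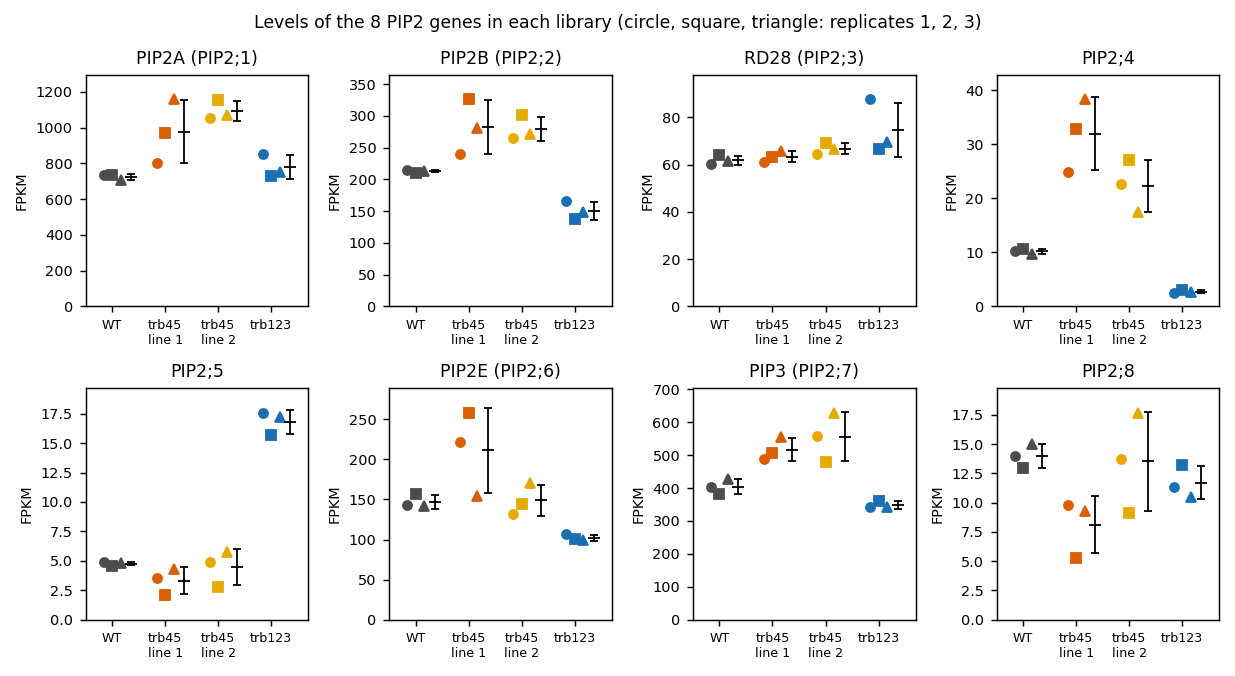
Level of each PIP2 gene in FPKM (vertical axes, linear and from 0) in the 3 libraries of each group, where circles, squares and triangles are replicates 1, 2 and 3 and the black marks are the mean ± SD. PIP2;4 lay between 17.4 and 38.3 FPKM in trb45, between 9.78 and 10.7 in WT and between 2.45 and 3.0 in trb123, and PIP2;5 stood apart in trb123 alone, at 15.7 to 17.6 FPKM.

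PIP2;5, a member usually found at low level in unstressed plants, was high in trb123. It was at 4.86, 4.59 and 4.84 FPKM in WT, 3.57, 2.1 and 4.29 in line 1, 4.94, 2.78 and 5.73 in line 2, and 17.6, 15.7 and 17.2 in trb123. The trb123 libraries were far above all 9 others, and the line 1 libraries lay below WT while those of line 2 overlapped it. The trb123 mean was 3.53 times the WT mean, a log2 difference of 1.63 (SE 0.21, 95% interval 1.18 to 2.08, limma adjusted p = 2.53e-05). Both trb45 lines were 1.91 below trb123 on the log2 scale, and the test was passed (difference -1.91, SE 0.18, limma adjusted p = 1.49e-06). Against WT the trb45 difference was -0.28 (95% interval -0.67 to 0.11, limma adjusted p = 0.255). With the term for the sets of libraries the trb123 difference from WT was 1.14, still called at a limma adjusted p of 0.0272. The family's opposite extremes in trb123 were thus its members with the lowest WT levels, PIP2;4 and PIP2;5.

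The abundant members PIP2A, PIP2B and PIP3 rose in trb45. PIP2A, a main water channel of roots and leaves that also acts in guard cells, was at 737, 733 and 707 FPKM in WT, 803, 970.1 and 1158 in line 1, 1056, 1155 and 1069 in line 2, and 853, 729.9 and 753 in trb123. All 6 trb45 libraries were above WT, and line 1 replicate 1 was below the highest trb123 library. PIP2A rose by 0.50 in both trb45 lines (SE 0.11, 95% interval 0.27 to 0.73, limma adjusted p = 0.0046), or 1.43 times the WT mean. In trb123 its difference from WT was 0.10 (95% interval -0.17 to 0.36, limma adjusted p = 0.506).

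PIP2B, which carries water into root cells, was at 215, 211 and 214 FPKM in WT, 241, 326 and 280.4 in line 1, 265, 301 and 270.8 in line 2, and 165, 137 and 149 in trb123. The 3 genotypes did not overlap, with trb45 highest and trb123 lowest. It rose by 0.39 in trb45 (SE 0.10, 95% interval 0.18 to 0.60, limma adjusted p = 0.0115), or 1.32 times WT, and fell by 0.50 in trb123 (SE 0.11, limma adjusted p = 0.00197), or 1.42-fold. With the term for the sets of libraries the trb123 difference was -0.51 and its call was lost (limma adjusted p = 0.079).

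PIP3, whose protein is carried to the plasma membrane with the help of the syntaxins SYP61 and SYP121, was at 404, 382 and 428 FPKM in WT, 489, 506 and 556 in line 1, 559, 479.7 and 629 in line 2, and 341, 362 and 343 in trb123. Here too trb45 was highest and trb123 lowest with no overlap. The trb45 rise was 0.40 (SE 0.09, 95% interval 0.20 to 0.60, limma adjusted p = 0.00682), or 1.33 times WT. In trb123 the difference was -0.21 (95% interval -0.44 to 0.01) and did not pass the test (limma adjusted p = 0.0978).

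These 3 calls for both lines against WT held when any of the 12 libraries was left out. They were lost with the term for the sets of libraries, under which the differences were 0.24 for PIP2A (limma adjusted p = 0.276), 0.39 for PIP2B (limma adjusted p = 0.137) and 0.30 for PIP3 (limma adjusted p = 0.197). Against trb123 the same 3 genes were higher in trb45, by 0.40, 0.89 and 0.61, and within the second set of libraries line 2 was above trb123 by 0.49, 0.89 and 0.66, with limma adjusted p of 0.00174, 9.11e-05 and 0.000834.

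PIP2E, known mainly from leaves, differed among the libraries of line 1. It was at 143, 157 and 142 FPKM in WT, 222, 258 and 154 in line 1, 132, 144 and 170.2 in line 2, and 107, 101 and 99.95 in trb123. Replicates 1 and 2 of line 1 were above all other libraries, while replicate 3, which lies in the second set, was within the range of WT and line 2. The trb123 libraries were the lowest of all. In line 1 the difference from WT was 0.49 (SE 0.16, 95% interval 0.15 to 0.83) and was called (limma adjusted p = 0.0476), but it was lost in 10 of the 12 fits that left out a library. Line 2 differed from WT by 0.01 (95% interval -0.33 to 0.35, limma adjusted p = 0.975). PIP2E fell by 0.52 in trb123 (SE 0.16, limma adjusted p = 0.0121). With the term for the sets this turned to 0.12 (limma adjusted p = 0.674), while both trb45 lines were then 0.67 above WT (limma adjusted p = 0.0139). Within the second set line 2 was above trb123 by 0.53 (limma adjusted p = 0.00217).

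RD28 and PIP2;8 moved least clearly. RD28, named for its induction by desiccation, was at 60.2, 63.9 and 61.4 FPKM in WT, 61.1 to 65.8 in line 1, 64.4 to 69.2 in line 2, and 87.6, 66.4 and 69.5 in trb123. The trb123 libraries were above WT, 1 of them by far, and those of line 2 were just above it. The trb123 difference of 0.25 (SE 0.10, 95% interval 0.03 to 0.47, limma adjusted p = 0.0452) was lost in 8 of the 12 fits that left out a library, and was 0.13 without trb123 replicate 1. In trb45 the difference was 0.07 (95% interval -0.12 to 0.26, limma adjusted p = 0.58). PIP2;8 was at 14.0, 13 and 15 FPKM in WT, 9.83, 5.31 and 9.24 in line 1, 13.7, 9.15 and 17.7 in line 2, and 11.3, 13.2 and 10.5 in trb123. Only the line 1 libraries were all below WT. The fall of 0.75 in line 1 (SE 0.22, limma adjusted p = 0.0331) was lost when line 1 replicate 2 or any WT library was left out, and the differences in line 2 (-0.09) and trb123 (-0.24) did not pass the test.

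Counting the 7 members other than PIP2;4, 4 rose and 1 fell in line 1 against WT, where 18.2% of all 18700 genes tested were called, 7.77% higher and 10.4% lower. In line 2 against WT 3 rose, with 30.5% of all genes called, 14.9% higher. For both lines together 3 rose, with 28.7% called, 12.8% higher. In trb123 against WT 2 rose (RD28 and PIP2;5) and 2 fell (PIP2B and PIP2E), with 59.4% of all genes called, 33.9% higher and 25.5% lower. The split was 1 higher and 3 lower with median-ratio or quantile scaling, and 2 higher and 4 lower with the compared groups only. The family was picked with a member's result in these contrasts known, so nothing is read from these counts. Between both trb45 lines and trb123, 4 of the 7 were higher in trb45 (PIP2A, PIP2B, PIP2E and PIP3) and PIP2;5 was lower, with 59.6% of all genes called, 23.4% higher and 36.2% lower. Between line 1 and line 2, 0 of all 8 members passed limma's test, with 4.63% of all genes called, and 3 members had an unadjusted p under 0.05. These were PIP2;4, PIP2E with a difference of 0.48 (limma adjusted p = 0.0768) and PIP2;8 with -0.66 (limma adjusted p = 0.0792). The median log2 difference of the 7 genes was 0.25 in trb45 and -0.21 in trb123, against -0.02 and 0.07 over all genes.

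**Figure D2:**
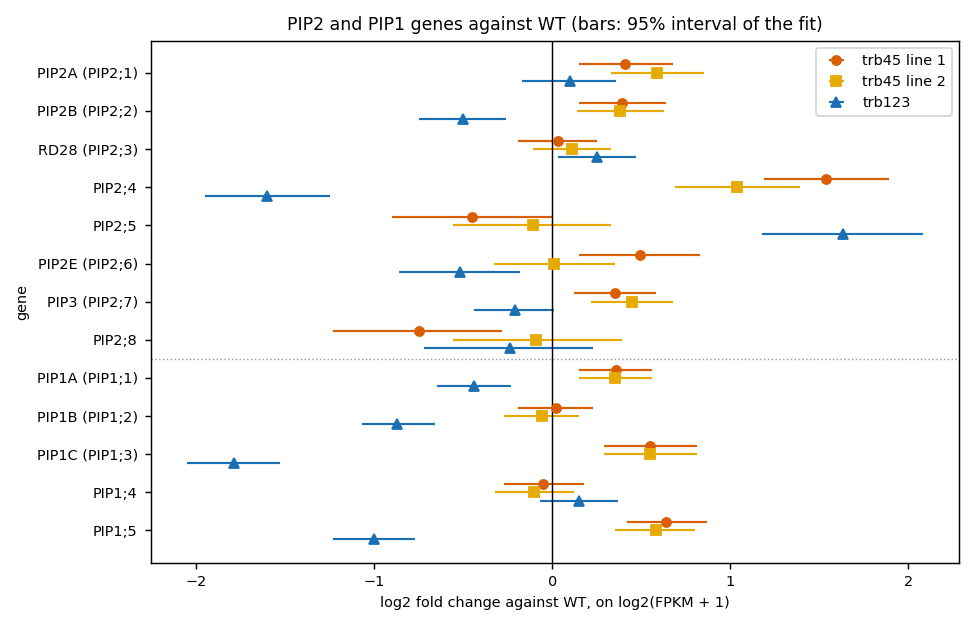
Log2 fold change against WT (horizontal axis, on log2(FPKM + 1)) of the 8 PIP2 genes (above the dotted line) and the 5 PIP1 genes (below it) in trb45 line 1, trb45 line 2 and trb123, with bars for the 95% interval of the limma fit. PIP2;4 lies at 1.54, 1.04 and -1.60 and is shown as a description, and PIP2;5 lies at 1.63 in trb123.

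The sums show how the family's make-up moved. The 8 PIP2 genes summed to 1575 to 1587 FPKM in WT, 1854 to 2265 in line 1, 2117 to 2247 in line 2 and 1428 to 1585 in trb123. The trb45 sums were all above WT, and the highest trb123 library reached the WT range. PIP2A made up 44.7% to 46.5% of the sum in WT and 51.1% to 53.8% in trb123. PIP2;4 was a small part throughout, at 0.618% to 0.678% in WT, 0.774% to 1.69% in trb45 and 0.155% to 0.21% in trb123. PIP2;5 went from 0.291% to 0.306% in WT to 1.1% to 1.19% in trb123. The ratio of PIP2B to RD28, singled out after its values were seen and not tested, was 3.3 to 3.57 in WT, 3.94 to 5.16 in trb45 and 1.89 to 2.14 in trb123, with no overlap. Reads inside their shared run could have been split between both genes, and how the authors assigned such reads is not given in the sources used here. The sum of the pair, whose FPKM are each scaled to the gene's own length and so also shift with that split, was 274.7 to 275.2 FPKM in WT, 302 to 389 in trb45 and 204 to 253 in trb123.

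The 5 PIP1 genes, the partners of the PIP2 proteins, went down in trb123 more than the PIP2 sum did. They summed to 1593 to 1667 FPKM in WT, 1736 to 1940 in trb45 and 945.1 to 965 in trb123, and the ratio of the PIP2 sum to the PIP1 sum was 0.949 to 0.989 in WT, 0.956 to 1.27 in line 1, 1.15 to 1.26 in line 2 and 1.51 to 1.64 in trb123. This ratio was also looked at after the values were known and was not tested. PIP1C (PIP1;3) was at 305, 289 and 320.1 FPKM in WT, 499, 408 and 434 in line 1, 444, 384 and 525 in line 2, and 84.3, 95.9 and 82.6 in trb123. It was highest in trb45 and lowest in trb123 with no overlap. The rise in trb45 was 0.55 (SE 0.10, limma adjusted p = 0.00258) and the difference in trb123 was -1.79 (SE 0.12, limma adjusted p = 1.25e-07). PIP1;5 rose by 0.61 in trb45 (limma adjusted p = 0.000628) and fell by 1.00 in trb123 (limma adjusted p = 5.13e-06), and PIP1A (PIP1;1) rose by 0.36 (limma adjusted p = 0.00794) and fell by 0.44 (limma adjusted p = 0.00168). PIP1B (PIP1;2), a major aquaporin of leaves, fell by 0.87 in trb123 (limma adjusted p = 8.24e-06) and differed by -0.02 in trb45 (limma adjusted p = 0.889). PIP1;4 did not pass the test in either. Thus 3 of 5 rose in trb45, where 12.8% of all genes did, and 4 of 5 fell in trb123, where 25.5% did. These PIP1 differences from WT carry the same limit as those of the PIP2 genes. WT lies in the first set of libraries, and all of line 2 and trb123 lie in the second. The sets and these differences cannot be told apart except through line 1.

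**Figure D3:**
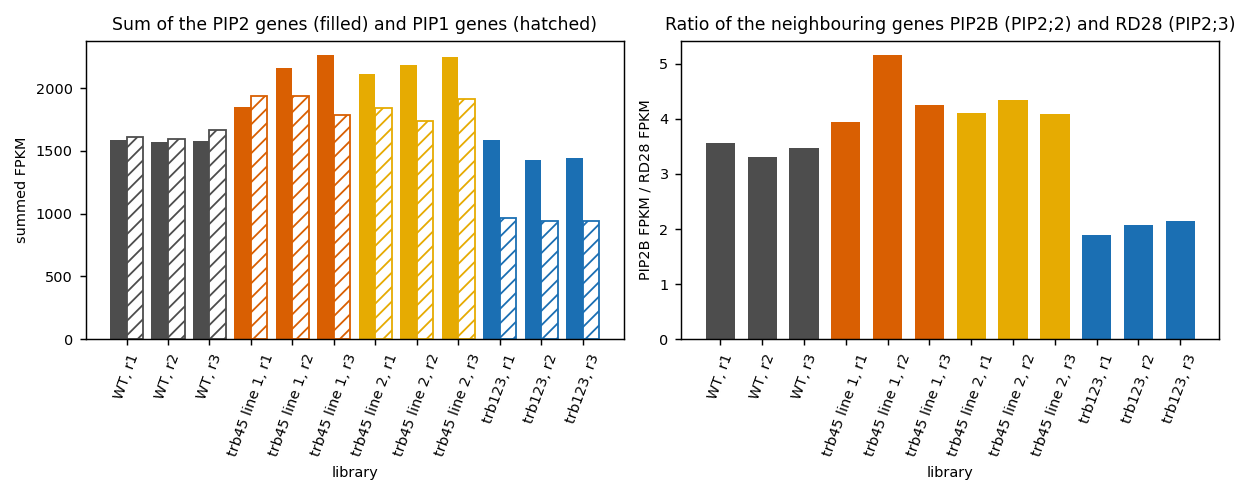
Left, summed FPKM of the 8 PIP2 genes (filled bars) and the 5 PIP1 genes (hatched bars) in each of the 12 libraries, where r1 to r3 are replicates. Right, the ratio of PIP2B to RD28 in the same libraries. In trb123 the PIP1 sum was 945.1 to 965 FPKM against 1593 to 1667 in WT, and the ratio was 1.89 to 2.14 against 3.3 to 3.57.

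Among the tonoplast, NOD26-like and small intrinsic proteins, the remaining groups of aquaporins, 16 of 22 genes could be tested. In trb45 2 rose and 1 fell, and in trb123 5 rose and 4 fell, with 28.7% and 59.4% of all genes called in these comparisons. Their medians were 0.07 and 0.06. TIP2;1, a water and ammonium channel of the vacuole, rose by 0.80 in trb45 (limma adjusted p = 5.13e-05) and by 0.68 in trb123 (limma adjusted p = 4.75e-05). TIP1;2, another vacuolar water channel, rose by 0.42 in trb45 (limma adjusted p = 0.00291) and fell by 0.94 in trb123 (limma adjusted p = 3.59e-06). TIP2;3 fell by 2.05 in trb123, from 16.7 ± 1.9 to 3.29 ± 0.61 FPKM (SD, n = 3 each, limma adjusted p = 1.21e-06), and TIP2;2 fell by 1.39 (limma adjusted p = 7.33e-06). TIP3;1, a channel of seed storage vacuoles, rose in trb123 from 1.09 ± 0.74 to 11.95 ± 3.0 FPKM (SD, n = 3 each, limma adjusted p = 1.23e-05). NIP6;1, a boric acid channel, rose by 1.25 in trb123 (limma adjusted p = 2e-05). In both trb45 lines it differed from WT by -0.43 (limma adjusted p = 0.0304), with -0.72 in line 1 (limma adjusted p = 0.00789) and -0.13 in line 2, which overlapped WT (limma adjusted p = 0.551). The call for both lines was lost in 4 of the 12 fits that left out a library, namely each WT replicate and line 2 replicate 2, with adjusted p up to 0.102. TIP1;3, TIP5;1, NIP4;1, NIP4;2 and NIP7;1 are not among the genes listed, and NIP3;1 was below the filter.

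Of 11 genes that act on PIP proteins or their traffic, 3 rose and 2 fell in trb45, and 4 rose and 5 fell in trb123, with 28.7% and 59.4% of all genes called. RMA1, a ubiquitin ligase of the endoplasmic reticulum that marks PIP2A for breakdown, averaged 4.59 ± 0.54 FPKM over the WT libraries, 14.6 ± 2.3 over those of line 1 and 13.4 ± 1.5 over those of line 2 (SD, n = 3 each). The log2 difference for both lines was 1.42 (SE 0.19, 95% interval 1.02 to 1.82, limma adjusted p = 0.000285), and in trb123 it was 0.18 (95% interval -0.28 to 0.65, limma adjusted p = 0.486). Its relative RMA2 rose by 0.96 in trb45 (limma adjusted p = 0.0016). The plasma membrane syntaxin SYP121 rose by 0.43 in trb45 and by 0.77 in trb123 (limma adjusted p = 0.00834 and 0.000113), and leaving out WT replicate 1 ended the trb45 call (limma adjusted p = 0.0512). The trans-Golgi syntaxin SYP61 differed from WT by -0.33 in line 1 (limma adjusted p = 0.191), where replicate 3 was lowest, and fell by 0.87 in line 2 (limma adjusted p = 0.00274) and by 0.64 in trb123 (limma adjusted p = 0.00549). With the term for the sets of libraries the trb123 value was 0.01. TSPO, a membrane protein that binds PIP3 and leads it to autophagy, rose by 1.00 in trb123 (limma adjusted p = 0.00991). Its trb123 libraries were at 8.92, 3.72 and 7.46 FPKM, and leaving out trb123 replicate 1 ended the call (limma adjusted p = 0.0523).

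The levels of tissue markers are given beside these results, and their part in them was not tested. Of 10 root hair genes 0 passed limma's test over both trb45 lines, where 28.7% of all genes did. There 2 of the 10 had an unadjusted p under 0.05. In trb123 2 rose and 2 fell, with 33.9% of all genes higher and 25.5% lower, and the list median was 0.10. Against WT 1 was called higher in line 1, where 7.77% of all genes were. In line 2 3 were called lower, as were 2919 of all 18700 genes. Their summed level was 228 to 321 FPKM in WT, 247 to 365 in line 1, 79.2 to 252 in line 2 and 175 to 206 in trb123. Of 11 genes of root endodermis and stele 4 fell in trb45, where 15.9% of all genes did, and 1 rose and 5 fell in trb123, where 59.4% of all genes were called. The list had summed levels of 222 to 229 FPKM in WT, 148 to 235 in trb45 and 160.2 to 169.7 in trb123. ESB1, needed for the Casparian strip, had a mean FPKM 2.22-fold lower in line 2 (limma adjusted p = 0.00222) and 2.99-fold lower in trb123 (limma adjusted p = 4.62e-05) than in WT. In line 1 its log2 difference was -0.19 (limma adjusted p = 0.54), with 31.6, 27.7 and 15.4 FPKM against 28.6, 28.1 and 25.5 in WT. SHR, a regulator of the stele and endodermis, fell by 0.97 in both lines (limma adjusted p = 0.000285). The summed level of the endodermis and stele list was lower in every trb123 library than in WT. The root hair sum was also lower there, but its called members went both ways. PRP1 and PRP3, cell wall proteins, were 2.31-fold and 1.77-fold lower in mean FPKM (limma adjusted p = 0.0224 and 0.0422). EXPA18, an expansin gene, rose by 0.62 on the log2 scale and RHD6, a regulator of root hairs, by 0.45 (limma adjusted p = 0.0281 and 0.0206). RHD6 was near the filter on low values, at 1.52, 0.78 and 1.16 FPKM in WT and 1.9, 1.42 and 2.5 in trb123, which overlapped. Of the 12 fits that left out a library, 4 lost the call of PRP1, 6 that of PRP3 and 5 that of EXPA18. The call of RHD6 was not followed in these fits. Between line 1 and line 2 the median difference was 0.74 for the root hair list and 0.27 for endodermis and stele. For the root nutrient transporters it was 0.43, against -0.06 over all genes. The members called higher in line 1 were 0, 1 and 3 in these lists, against 388 of all 18700 genes. The calls were lost in 9 of the 12 fits that left out a library for ESB1 and AMT1;2, in 10 for IRT1 and in 11 for NRT1.1. No list had a member at 0 in every library.

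Of the 7 root nutrient transporters tested, the 2 called in line 1, IRT1 and NRT3.1, were higher than in WT, by 0.79 and 0.58 (limma adjusted p = 0.0498 and 0.0417). In that comparison 7.77% of all genes were called higher. The IRT1 call was lost in 9 of the 12 fits that left out a library, with limma adjusted p up to 0.182. The 2 called in line 2, AMT1;2 and NRT1.1, fell by 0.77 and 0.52 (limma adjusted p = 0.00201 and 0.00418), where 2919 of all 18700 genes fell. In trb123 1 rose and 4 fell, with 59.4% of all genes called. IRT1, an iron transporter, fell by 2.09 in trb123 (limma adjusted p = 1.94e-05). Their summed level was 283 to 364 FPKM in WT, 356 to 399.8 in line 1, 178 to 299.8 in line 2 and 163 to 177 in trb123. Of 9 shoot and photosynthesis genes, 2 rose and 1 fell in trb45, where 12.8% of all genes rose and 15.9% fell. In trb123 4 fell, where 25.5% of all genes fell. The sums were 61730 to 66990 FPKM in WT, 60010 to 70360 in trb45 and 56310 to 61590 in trb123. All 5 guard cell genes fell in trb123, against 25.5% of all genes, and 3 fell in trb45, against 15.9%. Their sums were 42.9 to 45.4 FPKM in WT, 35.4 to 40.2 in line 1, 30.7 to 31.6 in line 2 and 21.5 to 24.3 in trb123.

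Several PIP2 genes respond to abscisic acid and drought in Arabidopsis, so 12 genes of that response were set beside them. In trb45 limma called 0 higher, with 1 higher at an unadjusted p under 0.05, and 6 lower, with 15.9% of all genes lower and a list median of -0.52. In trb123 1 rose and 9 fell, with 33.9% of all genes higher and 25.5% lower, and the list median was -0.70. RAB18, a dehydrin induced by abscisic acid, averaged 154 ± 32 FPKM over the WT libraries, 77.7 ± 42 over those of line 1, 36.7 ± 1.7 over those of line 2 and 7.16 ± 1.8 over those of trb123 (SD, n = 3 each). It fell by 1.56 in trb45 (limma adjusted p = 0.00101) and by 4.25 in trb123 (limma adjusted p = 1.35e-07). In line 1 RAB18 was at 64.0, 124.9 and 44.3 FPKM, and replicate 3, the lowest, lies in the second set of libraries. The line 1 call was lost without that library, WT replicate 1 or WT replicate 3, with limma adjusted p up to 0.0861. All line 2 and trb123 libraries lie in the second set too. Their differences from WT and that between the sets cannot be told apart except through line 1. KIN1, a gene induced by cold and abscisic acid, fell by 1.34 and 1.43 (limma adjusted p = 0.000139 and 2.46e-05), and P5CS1, the proline synthesis enzyme, fell by 2.60 in trb123 (limma adjusted p = 2.16e-07). The list's median was below 0 in both genotypes, and its relation to the PIP2 levels was not tested.

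The pattern of PIP2;4 was compared with that of all 18699 other genes tested, as the root mean square difference over the 12 libraries of log2(FPKM + 1) after subtracting each gene's WT mean. The closest were IGMT4, an indole glucosinolate methyltransferase, at 0.31, then AT5G11420, a protein with a DUF642 domain, at 0.32, AT5G14090 (LAZY1, which acts in shoot gravitropism) at 0.34, AT5G43520, a protein of the C1 domain family, at 0.40, and GASA6, a gibberellin-regulated peptide, at 0.41. AT5G14090 overlaps AT5G14100 and GASA6 overlaps AT1G74675 in the annotation, so their values are less certain. IGMT4 averaged 24.6 ± 2.3 FPKM over the WT libraries, 57.7 ± 9.2 over those of line 1, 53.1 ± 8.8 over those of line 2 and 10.2 ± 4.0 over those of trb123 (SD, n = 3 each). GASA6 was at 153 ± 9.2, 291 ± 36, 303 ± 24 and 44.6 ± 13 FPKM in the same groups. Of all genes 292, or 1.56%, passed the test in both directions, up in trb45 and down in trb123.

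**Figure D4:**
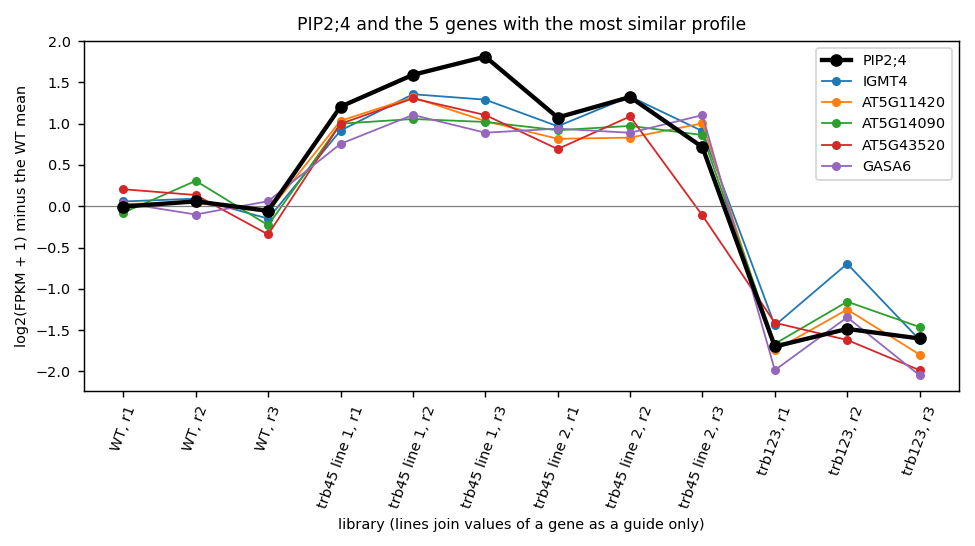
Log2(FPKM + 1) minus the gene's WT mean (vertical axis) in each library for PIP2;4 (thick black line) and the 5 genes of closest profile. The genes follow PIP2;4 to a root mean square difference of 0.31 to 0.41, and AT5G43520 leaves the others in trb45 line 2 replicate 3.

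Among aquaporins the closest to PIP2;4 were of the PIP1 branch and the vacuole: PIP1;5 at 0.60 (place 52 of 18699), PIP1C at 0.63 (place 72), TIP2;2 at 0.73 (place 166) and TIP1;2 at 0.76 (place 193). The closest member of its own branch was PIP2B at 0.87 (place 443), and PIP2;5 was among the most distant of all genes at 2.01 (place 18364). Within the family the most alike were PIP2B and PIP3, at 0.22, and PIP2A and PIP3, at 0.23. These distances are descriptions, with no test, since PIP2;4 was chosen for its pattern.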

How the data were processed

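The deposited values are FPKM per gene and library, which the authors gave to 2 decimals in 4 tables, 1 per group, joined here by gene ID. In the line 1 table the deposited FPKM have decimal commas, read as points. STAR 2.7.1, DESeq2 and TAIR10 are named per the submitters' processing notes, and the program that counted fragments is not given in the sources used here. Differences are of log2(FPKM + 1), which understates the change of low genes. The 18700 genes with at least 1 FPKM in at least 3 libraries were fitted with limma 3.58.1 in R 4.3.3 (4 group means over 12 libraries, eBayes with trend, Benjamini-Hochberg adjustment over all genes, called at an adjusted p under 0.05), after a test on simulated data. Read counts were not used here, so no count test was run. The labels do not say that replicates were separate cultures, so p-values measure the spread between these libraries, which may be technical. Replicate numbers are not stated to mark a shared batch, so the main fit did not pair the libraries by them. Depth was inferred from the steps of low FPKM values, 82.6% to 85.4% of which fell within 0.25 of a whole fragment, and fragment numbers are approximate. Gene models and sequences are RefSeq TAIR10.1, read with Python 3.11.15, and coding sequences were aligned with Biopython 1.88. The PIP2 genes, the other gene lists and the tests were chosen with earlier results of these data known. Named outside the family were the PIP1 genes and the 5 genes closest to PIP2;4 in pattern. Of each other list, at most the 3 called members with the largest changes were taken for both trb45 lines and for trb123 against WT. RHD6 and NRT3.1 were named beyond that rule, as were the TRB genes and the aquaporins that could not be tested. The alternatives tried were the pseudocount, the filter, scaling, moderation, the threshold, the libraries fitted, a replicate block, a term for the sets of libraries and each library left out.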

Additional observations from a re-analysis of the deposited data

How the results depend on the processing

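The number of PIP2 genes called besides PIP2;4 was least stable in trb45 line 1 against WT, where 4 were called higher and 1 lower. It was 3 with quantile scaling and 3 with the term for the 2 sets of libraries (2 higher and 1 lower in each), 3 within the first set alone (1 higher and 2 lower), 1 with the compared groups only (0 higher and 1 lower), 0 at an adjusted p under 0.01, and 0 to 5 when each library was left out. With the term for the sets, line 2 against WT went from 3 to 0, both lines against WT from 3 to 1 and trb123 against WT from 4 to 1. At an adjusted p under 0.01 trb123 against WT had 2. Leaving out each library gave 2 to 3 for line 2, 3 to 4 for both lines, 3 to 4 for trb123 and 5 to 6 for both lines against trb123, where no alternative moved the count of 5 by over 1.5 times. Line 1 against line 2, with 0 of 8 genes called, gave 0 to 3 when each library was left out, with 3 called without line 1 replicate 3 and 2 without line 2 replicate 2. With the replicate block, RD28 in trb123 (0.25, limma adjusted p = 0.0622) and PIP2E in line 1 (0.49, limma adjusted p = 0.0544) lost their calls, and no other PIP2 call changed. Same-numbered libraries correlated at -0.056 to 0.318 over 18 pairs, 4 of them over 0.1. WT replicate 2 correlated at 0.318 with line 2 replicate 2 and at -0.318 with line 2 replicate 3. Whether the numbers mark a shared batch was not tested. The values that reversed were 3, all with the term for the sets: PIP2E in trb123 to 0.12, SYP61 in trb123 to 0.01 and AS1, a leaf development gene, in line 2 to 0.01. The cause was not tested. Of 1820 values of PIP2 and PIP1 genes under alternatives, 1692 stayed the same, and 38 values called in neither setting changed sign. Staying the same meant keeping the side of the threshold, with no called value changing sign. For PIP2;4, except in line 1 against line 2, it meant keeping the sign and moving by less than the SD within groups. The comparisons within the first or the second set of libraries were chosen after seeing the data. Approximate fragments behind PIP2;5 were 89 to 247 per trb45 library, so its small differences there are limited by depth and spread.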
